A study of Mus musculus with 12 samples.

Results

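Chemokines are small secreted proteins that bind G protein-coupled receptors and set the direction in which leukocytes migrate. Group 2 innate lymphoid cells (ILC2s) are tissue-resident lymphocytes that respond to the epithelial alarmin IL-33 and are known as a source of type 2 cytokines and of some chemokines. The 10 chemokine genes described here, *Ccl1*, *Ccl3*, *Ccl4*, *Ccl5*, *Ccl17*, *Ccl22*, *Cxcl2*, *Cxcl3*, *Cxcl10* and *Xcl1*, were taken by name from the 24346 genes measured in lung ILC2s. They were chosen with earlier results of these data known, and all 10 were above 0 in at least 1 library.

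The 12 RNA-seq libraries, 3 per group, came from lung ILC2s sorted as CD45+ Lin- Thy1.2+ ST2+ cells. WT and *Sema6d*-/- mice (6DKO in the labels; the gene is disrupted in all cells of the animal) on the C57BL/6J background (C57BL/6 in the labels), 7 to 12 weeks old, were given PBS or recombinant mouse IL-33 intranasally for 3 days. The labels give the IL-33 dose as 50 ng, while the methods of the study give a higher one. The sources used here do not say whether a library came from 1 mouse or from a pool, so p-values measure only the spread between these libraries.

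Values are FPKM, read fragments scaled by transcript length and library size, and summed to between 701590 and 819330 per library. *Sema6d* itself was measured at 27.5, 46.1 and 37.5 FPKM (WT PBS) and 29.0, 22.9 and 19.8 FPKM (*Sema6d*-/- PBS). Under IL-33 it was measured at 19.7, 35.5 and 28.7 FPKM (WT) and 15.4, 13.6 and 13.8 FPKM (*Sema6d*-/-). *Sema6d*-/- libraries were lower over both treatments (exact permutation test within treatment, two-sided, p = 0.01, n = 3 per group), but the PBS groups overlapped and the transcript was present in every library. Which part of the gene the allele removes is not given in the sources used here, so reads from the remaining part cannot be told apart from intact transcript.

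All 9 ILC2 markers were above 0 in every library, with *Areg*, an epidermal growth factor family ligand, the most abundant at 1063 to 2188 FPKM. Averaged over genotypes, 3 of the 9, *Areg*, *Icos* and *Il2ra*, were called lower with IL-33 and 1, *Klrg1*, was called higher (limma), beside 3.1% lower and 5.81% higher of all genes. PBS and IL-33 libraries differed in how many genes were listed at 0. Of 5320 genes with a median of at least 10 FPKM, 200, 218 and 53 were at 0 in WT PBS libraries and 309, 64 and 82 in *Sema6d*-/- PBS libraries. In the IL-33 libraries 4 to 10 of them were at 0. The general transcription factor gene *Tbp* was at 0 in *Sema6d*-/- PBS replicate 1, so a 0 in a PBS library is given here only as listed at 0.

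NK cell markers also set libraries apart. All 8 were above 0 in *Sema6d*-/- PBS replicate 2, where they summed to 834 FPKM, and 5 of 8 in *Sema6d*-/- IL-33 replicate 1, where they summed to 43.8 FPKM. In the other 10 libraries the sum was 0 to 19.5 FPKM, with 0 to 3 markers above 0. *Gzma*, a granule protease and the most abundant of the list, was at 653 FPKM in the first of these libraries and 37.2 FPKM in the second, and *Ncr1*, which encodes the activating receptor NKp46, was at 58.9 and 2.61 FPKM and at 0 in the other 10. The first of these libraries also stood apart for macrophage and monocyte markers, which summed to 138 FPKM, with *Lyz2*, the lysozyme gene, at 112 FPKM, against 0.71 to 17.2 FPKM in the other 5 PBS libraries. Under IL-33 they summed to 0.815 to 5.18 FPKM in WT and to 10.9, 35.5 and 66.9 FPKM in *Sema6d*-/- libraries. The lineage markers of the sort include NK1.1, CD11c and F4/80, markers of NK cells, dendritic cells and macrophages. The methods of the study give no purity of the sorted cells, and whether such cells remained in these libraries was not tested.

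The question asked first was how the chemokine genes of ILC2s responded to IL-33. *Ccl1* and *Cxcl2*, the most abundant of the 10 in PBS libraries, fell in both genotypes, and none of the other 8 passed the test within a genotype. *Ccl1* encodes the ligand of CCR8 and *Cxcl2* a neutrophil-attracting ligand of CXCR2. In WT ILC2s these 2 of 10 genes were called lower (limma, Benjamini-Hochberg adjusted p under 0.05 over 11436 genes tested), where 1.61% of all genes were. In *Sema6d*-/- ILC2s the same 2 were called lower, where 1.11% of all genes were. Averaged over genotypes, 2 were called lower beside 3.1% of all genes, and *Ccl17* was called higher beside 5.81%. Among markers of other cells, only *Epcam* and *Cpa3* were called lower with IL-33 averaged over genotypes (limma). In the same contrast 5 dendritic cell markers, the macrophage marker *Cd68* and the B cell marker *Cd79b* were called higher. The median log2 fold change was 0.0593 for epithelial, endothelial and stromal markers and 0.0238 for mast cell and basophil markers, beside 0.16 over all genes. *Epcam*, an epithelial adhesion gene, was at 16.4 to 54.0 FPKM in PBS and at 0 to 8.71 FPKM in IL-33 libraries. *Cpa3*, a mast cell protease gene, was at 42.9 to 89.3 and 17.8 to 40.0 FPKM. In bulk RNA, fewer cells expressing a gene and less RNA per cell cannot be told apart.

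*Ccl1* was measured at 6073, 8658 and 6654 FPKM (WT PBS) and 5467, 6932 and 6841 FPKM (*Sema6d*-/- PBS). It ranked between 4 and 11 among all genes of these 6 libraries. After IL-33 it was measured at 620, 972 and 1011 FPKM (WT) and 577, 703 and 664 FPKM (*Sema6d*-/-), ranks 131 to 221. Every IL-33 library lay below every PBS library. The mean was 8.21-fold lower in WT (log2 fold change −3.05, SE 0.19, limma adjusted p = 1.79e-05) and 9.89-fold lower in *Sema6d*-/- ILC2s (−3.30, SE 0.19, limma adjusted p = 7.02e-06). Log2 fold changes are of FPKM + 1 throughout, which understates the change of low genes. With treatment permuted within genotype, the exact two-sided p was 0.005 for *Ccl1*, the smallest this test can give with n = 3 per group.

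*Cxcl2* was measured at 1617, 1619 and 1686 FPKM (WT PBS) and 1336, 1131 and 1072 FPKM (*Sema6d*-/- PBS). After IL-33 it was measured at 421, 539 and 566 FPKM (WT) and 543, 261 and 451 FPKM (*Sema6d*-/-), again with no overlap between treatments. The log2 fold change was −1.70 (SE 0.23, limma adjusted p = 0.00158) in WT and −1.55 (SE 0.23, limma adjusted p = 0.0041) in *Sema6d*-/- ILC2s. The exact permutation p within genotype was 0.005, again the smallest possible with n = 3 per group. The call in *Sema6d*-/- ILC2s was lost with array weights (limma adjusted p = 0.0795) and when the other groups were left out of the fit (0.0539), over a range of 0.00378 to 0.0795 in 21 alternatives.

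**Figure D1:**
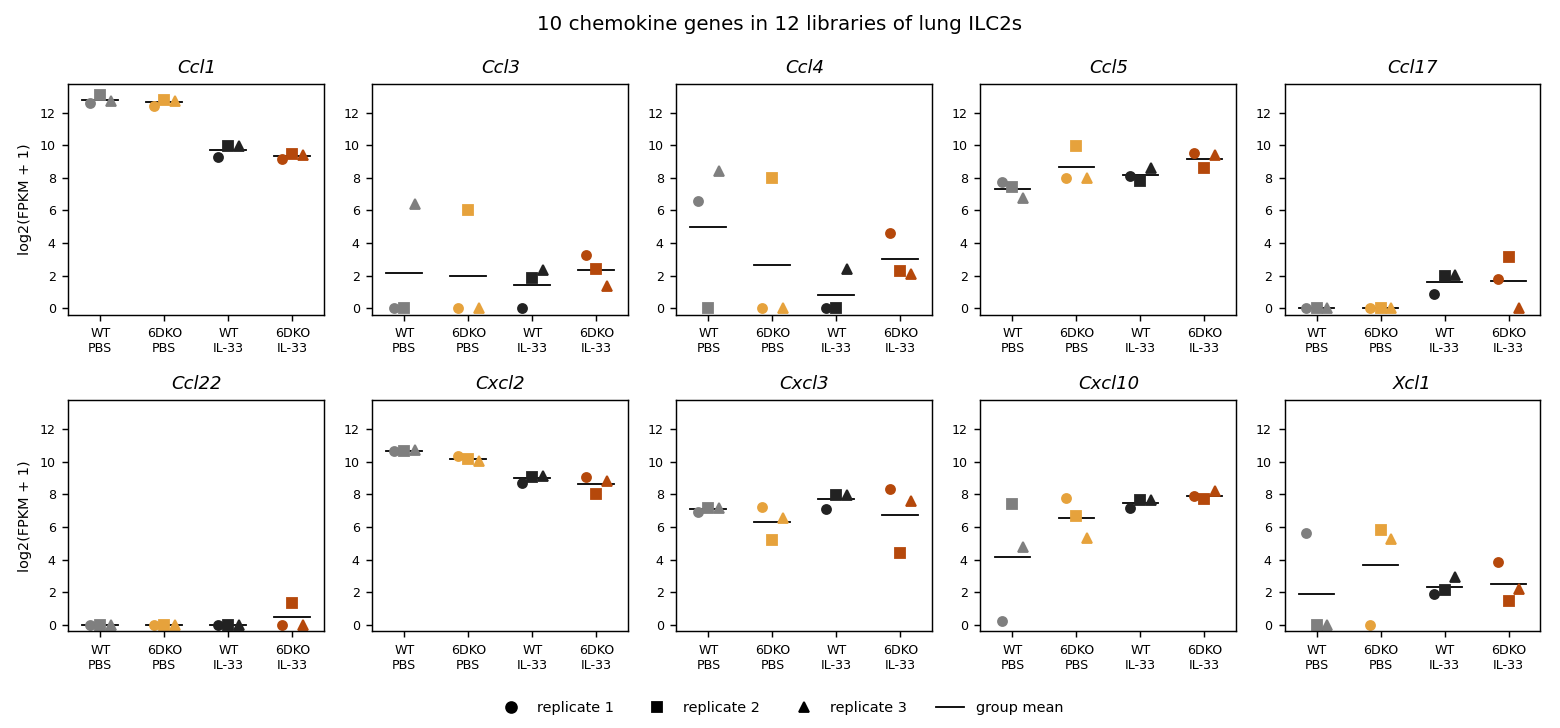
Level of each of the 10 chemokine genes as log2(FPKM + 1) in every library, by genotype and treatment, with symbols for the replicate number and a line at the group mean (n = 3). *Ccl1* and *Cxcl2* were lower in every IL-33 library than in every PBS library, and several other genes had libraries at 0.

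*Cxcl3* encodes another CXCR2 ligand and lies on the same chromosome as *Cxcl2*, but its change with IL-33 did not pass the test in either genotype. Among *Sema6d*-/- IL-33 libraries both genes were highest in replicate 1 and lowest in replicate 2. In WT IL-33 libraries both were lowest in replicate 1. In *Sema6d*-/- PBS libraries *Cxcl2* was lowest in replicate 3 and *Cxcl3* in replicate 2. It was measured at 120, 145 and 143 FPKM (WT PBS) and 139, 253 and 250 FPKM (WT IL-33). In *Sema6d*-/- libraries it was measured at 147, 35.1 and 91.4 FPKM (PBS) and 317, 19.8 and 189 FPKM (IL-33). Replicate 2 was the lowest of each *Sema6d*-/- group, and treatments overlapped in both genotypes (limma adjusted p = 0.773 in WT and 0.85 in *Sema6d*-/- ILC2s). In GENCODE transcripts, 101 of the 2209 windows of 75 bases in *Cxcl2* also occur in *Cxcl3*, so the split of reads between these genes is uncertain to that extent.

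*Cxcl10* encodes an interferon-inducible ligand of CXCR3. It was measured at 0.185, 172 and 26.4 FPKM (WT PBS) and 214, 99.3 and 38.8 FPKM (*Sema6d*-/- PBS). In IL-33 libraries it was measured at 140, 198 and 199 FPKM (WT) and 235, 206 and 291 FPKM (*Sema6d*-/-). The PBS libraries were widely spread and the IL-33 libraries were not. The change in WT did not pass the test (log2 fold change 3.32, limma adjusted p = 0.204), and without WT PBS replicate 2 it did (4.96, 0.0295; range over 21 alternatives 0.0295 to 0.421). Without WT PBS replicate 1, the library at 0.185 FPKM, the log2 fold change was 1.37 in WT and 1.36 averaged over genotypes (2.34 with all libraries), and neither passed the test. Averaged over genotypes the adjusted p was 0.156, and it was 0.0212 without WT PBS replicate 2 and 0.0344 with array weights (range over 20 alternatives 0.0212 to 0.318). The exact permutation p within genotype was 0.025 (n = 3 per group), unadjusted for the 10 genes tested.

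*Ccl5*, *Ccl3*, *Ccl4* and *Xcl1* encode chemokines known from NK cells and activated T cells, and *Xcl1* encodes the ligand of XCR1. *Ccl5* was measured at 210, 169 and 108 FPKM (WT PBS) and 282, 220 and 393 FPKM (WT IL-33), which did not overlap. In *Sema6d*-/- libraries it was measured at 249, 995 and 254 FPKM (PBS) and 741, 391 and 667 FPKM (IL-33). Its highest value was in the library with all 8 NK cell markers and the highest macrophage marker sum, and its second highest in the library with 5 of them. Averaged over genotypes, IL-33 gave a log2 fold change of 0.71 (limma adjusted p = 0.247). Without *Sema6d*-/- PBS replicate 2 it was 1.04 and passed the test (0.021), and without both libraries with NK cell markers, an alternative chosen after seeing the data, it was 0.95 and did not (0.0554; range over 20 alternatives 0.021 to 0.431).

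*Ccl3* was above 0 in WT PBS replicate 3 (84.3 FPKM) and *Sema6d*-/- PBS replicate 2 (63.5 FPKM) and listed at 0 in the other 4 PBS libraries. In IL-33 libraries it was measured at 0, 2.67 and 4.20 FPKM (WT) and 8.45, 4.34 and 1.59 FPKM (*Sema6d*-/-). *Ccl4* was measured at 94.4, 0 and 337 FPKM (WT PBS) and 0, 256 and 0 FPKM (*Sema6d*-/- PBS). It was measured at 0, 0 and 4.33 FPKM (WT IL-33) and 23.2, 3.91 and 3.33 FPKM (*Sema6d*-/- IL-33). PBS libraries were thus either at 0 or above every IL-33 library for both genes. No IL-33 contrast passed for either (limma adjusted p 0.391 to 0.977).

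*Xcl1* was measured at 48.4, 0 and 0 FPKM (WT PBS) and 0, 56.1 and 37.1 FPKM (*Sema6d*-/- PBS). It was above 0 in all IL-33 libraries, measured at 2.69, 3.40 and 6.65 FPKM (WT) and 13.8, 1.72 and 3.54 FPKM (*Sema6d*-/-). Of the IL-33 libraries, *Sema6d*-/- replicate 1, with 5 NK cell markers above 0, was the highest for *Ccl3*, *Ccl4*, *Ccl5* and *Xcl1*. The part of NK cell or macrophage RNA in these values was not tested. WT PBS replicate 3, the highest for *Ccl3* and *Ccl4*, had 1 of 8 NK cell markers above 0 and *Gzma* at 0. WT PBS replicate 1, with 3 of 8 and *Gzma* at 11.6 FPKM, was the highest WT PBS library for *Ccl5* and *Xcl1*. WT IL-33 replicate 3, with *Gzma* at 5.11 FPKM, was the highest WT IL-33 library for *Ccl3*, *Ccl4*, *Ccl5* and *Xcl1*.

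**Figure D2:**
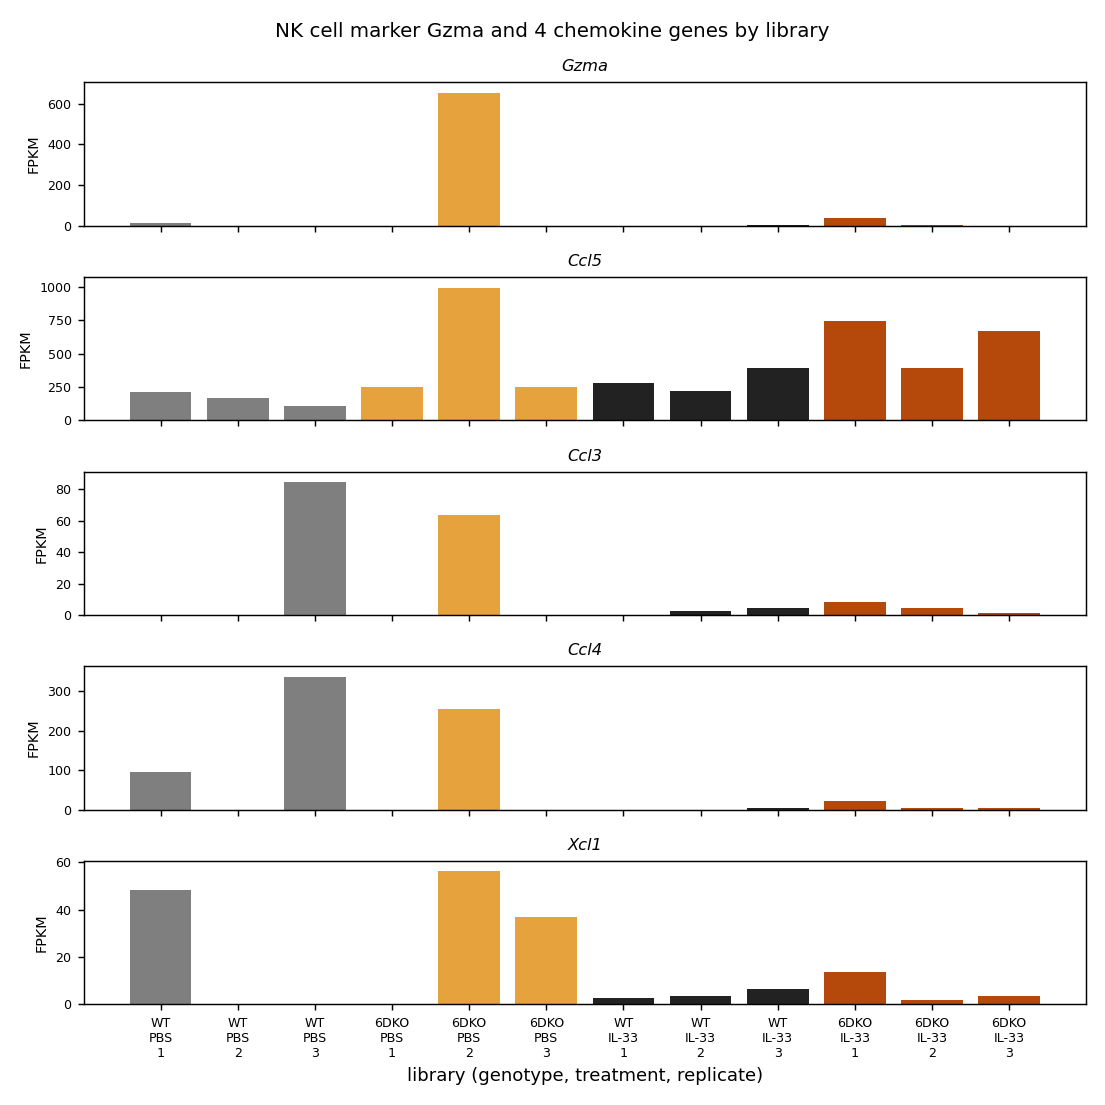
FPKM of the NK cell marker *Gzma* and of *Ccl5*, *Ccl3*, *Ccl4* and *Xcl1* in each of the 12 libraries, 1 bar per library, on linear axes from 0. *Gzma* reached 653 FPKM in *Sema6d*-/- PBS replicate 2, the library with the highest *Ccl5* and *Xcl1*, and 37.2 FPKM in *Sema6d*-/- IL-33 replicate 1.

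*Ccl17* and *Ccl22* encode the ligands of CCR4 and are known from dendritic cells and macrophages. *Ccl17* was listed at 0 in all 6 PBS libraries and was measured at 0.861, 2.91 and 3.20 FPKM (WT IL-33) and 2.50, 7.84 and 0 FPKM (*Sema6d*-/- IL-33). Its call averaged over genotypes (log2 fold change 1.65, SE 0.47, limma adjusted p = 0.0491) was kept in 2 of 20 alternatives, with a range of 0.00621 to 0.181. The exact permutation p within genotype was 0.02 (n = 3 per group), unadjusted for the 10 genes tested. *Ccl22* was above 0 only in *Sema6d*-/- IL-33 replicate 2, at 1.58 FPKM, the library with the highest *Ccl17*. Of 12 dendritic cell markers 11 were above 0 somewhere, and 5 of these (*Batf3*, *Ccr7*, *H2-Aa*, *H2-Ab1* and *Cd74*) were called higher with IL-33 averaged over genotypes and 0 lower (limma), beside 5.81% and 3.1% of all genes. *Flt3*, *Zbtb46*, *Itgax*, *Cd209a*, *Siglech* and *Fscn1* of the same list were not called in this contrast. The list summed to 21.1 to 350 FPKM in PBS and to 544 to 1789 FPKM in IL-33 libraries. Its most abundant gene, *Cd74*, the invariant chain of MHC class II, was at 8.34 to 167 FPKM with PBS and at 285 to 936 FPKM with IL-33, while *Clec9a* was at 0 in all 12 libraries. The part of dendritic cell RNA in the *Ccl17* values was not tested, nor was that of the larger number of genes listed at 0 in PBS libraries.

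FPKM values of low genes stood at whole multiples of a smallest step, from which the relative depth of the libraries was read. Against WT IL-33 replicate 3 it was 0.739 to 0.998 in PBS libraries and 0.968 to 1.39 in IL-33 libraries. With this depth, *Ccl17* corresponded to at least 3, 8 and 8 reads in WT IL-33 and 7, 19 and 0 reads in *Sema6d*-/- IL-33 libraries. These are the smallest whole numbers within 0.05 of the values, and true counts may be multiples of them. *Cxcl10* corresponded in the same way to 1, 1119 and 171 reads in WT PBS libraries. *Xcl1* stood at 86, 116 and 89 reads in the 3 PBS libraries above 0 and at 4 to 37 reads in the IL-33 libraries.

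The second question was whether loss of Sema6D altered these genes. None of the 10 passed the test in either treatment. Under IL-33, 0 of 10 were called beside 0.00874% of all genes, and 0 of 10 had an unadjusted limma p under 0.05, beside 211 of all 11436 genes. Under PBS, 0 of 10 were called beside 0.595%, and 1 of 10, *Ccl5*, had an unadjusted p under 0.05, beside 1484 of all 11436 genes. For the interaction between genotype and IL-33, 0 of 10 were called beside 0.0175% of all genes and 0 had an unadjusted p under 0.05, beside 639 of all 11436 genes, so the IL-33 responses of *Ccl1* (interaction −0.25, 95% CI −0.84 to 0.35) and of the other genes were not shown to differ between genotypes.

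*Ccl5* came nearest to a genotype difference. Its mean was 3.07-fold higher in *Sema6d*-/- than in WT PBS libraries (log2 fold change 1.34, SE 0.49, limma adjusted p = 0.289) and 2.01-fold higher under IL-33 (0.99, SE 0.49, limma adjusted p = 1). All 3 *Sema6d*-/- PBS libraries lay above the WT PBS libraries, while under IL-33 the lowest *Sema6d*-/- library, at 391 FPKM, lay just below the highest WT library, at 393 FPKM. With genotype permuted within treatment the exact p was 0.01 for *Ccl5* (n = 3 per group), 0.045 for *Cxcl2* and 0.13 to 1 for the other 8, none adjusted for the 10 genes tested. The highest *Ccl5* values were in the 2 *Sema6d*-/- libraries with NK cell markers. Without them the log2 fold change was 0.68 under PBS and 0.81 under IL-33 (limma adjusted p = 0.461 and 1).

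*Cxcl2* in PBS libraries was lower in *Sema6d*-/- ILC2s with no overlap, 1072 to 1336 against 1617 to 1686 FPKM, and the difference did not pass the test (limma adjusted p = 0.4). *Cxcl10* under IL-33 was at 206 to 291 FPKM in *Sema6d*-/- and 140 to 199 FPKM in WT libraries, also without overlap (limma adjusted p = 1). Under IL-33 the sums of dendritic cell markers (1349 to 1789 FPKM in *Sema6d*-/- and 544 to 1148 FPKM in WT libraries) and of macrophage markers, given above, were also without overlap between genotypes. No gene of either list was called for genotype under IL-33 (limma). *Ccl1* under IL-33 had a log2 difference of −0.39 (95% CI −0.81 to 0.03), and its groups overlapped. With 3 libraries against 3, an exact permutation test cannot go below p = 0.1.

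**Figure D3:**
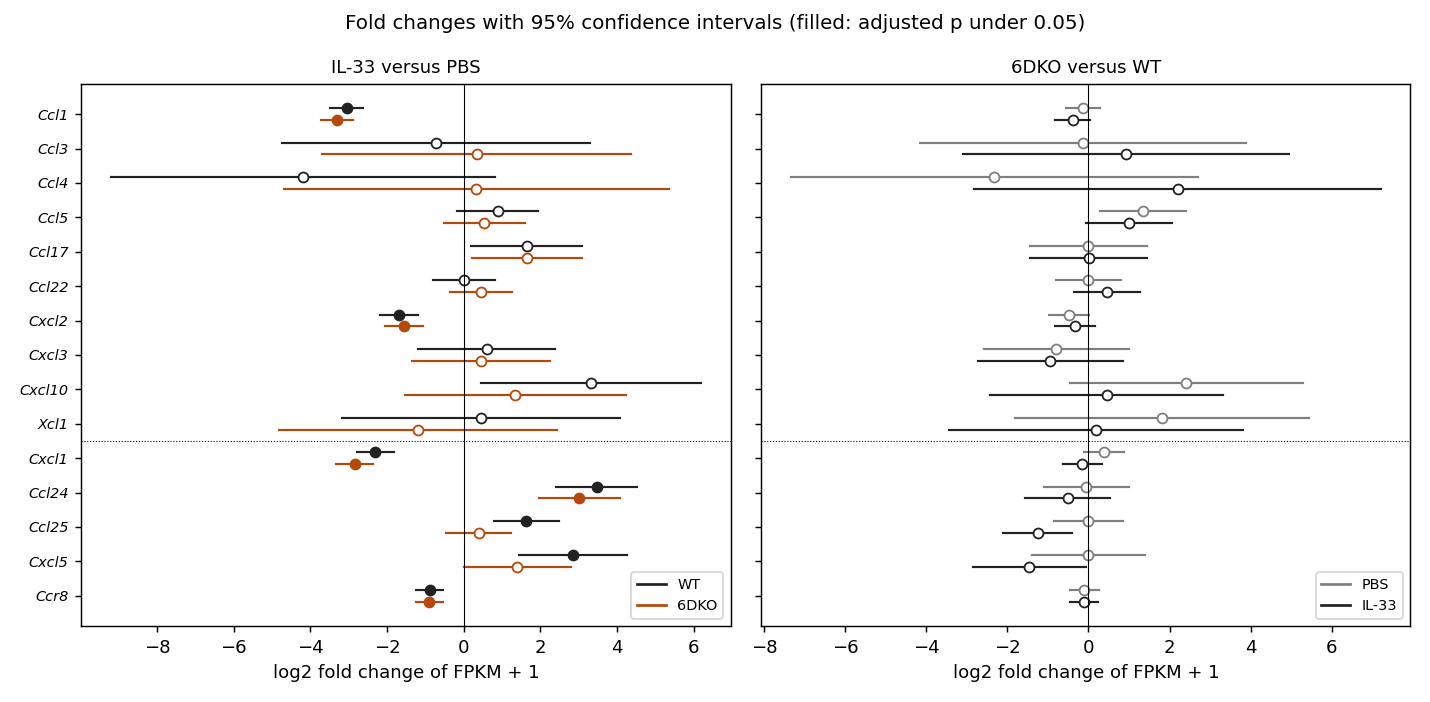
Log2 fold changes of FPKM + 1 with 95% confidence intervals from limma for the 10 chemokine genes, above the dotted line, and for 4 other chemokine genes and *Ccr8*. Left, IL-33 against PBS in each genotype; right, *Sema6d*-/- against WT in each treatment. Filled points have an adjusted p under 0.05, and none in the right panel is filled.

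Among the 5 genes above 0 in every library, the order of levels was the same in both WT groups and differed in *Sema6d*-/- groups. In WT PBS libraries mean FPKM ran from *Ccl1* (7128 ± 1356, SD, n = 3) through *Cxcl2* (1641 ± 39.3) and *Ccl5* (162 ± 51.6) and *Cxcl3* (136 ± 13.8) to *Cxcl10* (66.4 ± 92.8), and the ranges of the last 3 overlapped. In WT IL-33 libraries *Ccl1* (868 ± 216) still led *Cxcl2* (509 ± 76.8) and *Ccl5* (298 ± 87.7), with *Cxcl3* (214 ± 64.7) and *Cxcl10* (179 ± 33.7) overlapping below. In *Sema6d*-/- PBS libraries *Cxcl10* (117 ± 89.1) lay above *Cxcl3* (91.0 ± 55.7), with overlap. In *Sema6d*-/- IL-33 libraries the order was *Ccl1* (648 ± 64.6), *Ccl5* (600 ± 184), *Cxcl2* (418 ± 144), *Cxcl10* (244 ± 43.2) and *Cxcl3* (175 ± 149), each overlapping the next. These differences in order were not tested. The 10 genes together took 0.912% to 1.36% of summed FPKM in PBS libraries and 0.206% to 0.337% in IL-33 libraries. Their median log2 fold change with IL-33 was 0.22 in WT and 0.39 in *Sema6d*-/- ILC2s, beside 0.16 and 0.14 over all genes tested. Averaged over genotypes it was 0.0186, beside 0.16 over all genes. These medians are over genes with values in both directions. Quantile normalization moved the median of all genes in WT from 0.16 to −0.05, and *Ccl1* and *Cxcl2* kept their direction and their calls averaged over genotypes.

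Of 28 other chemokine genes, 20 were above 0 in some library. In WT ILC2s 3 of the 20 rose with IL-33 and 1 fell, beside 2.71% and 1.61% of all genes. In *Sema6d*-/- ILC2s 1 rose and 1 fell, beside 1.78% and 1.11%. *Cxcl1*, a further CXCR2 ligand, fell in both genotypes, from 573 to 709 FPKM with PBS to 97.8 to 171 FPKM with IL-33 in WT (log2 fold change −2.31, limma adjusted p = 0.000237) and from 661 to 893 FPKM to 92.4 to 132 FPKM in *Sema6d*-/- ILC2s (−2.84, 6.33e-05). *Ccl24*, which encodes the eosinophil attractant eotaxin-2, was at 0.127 FPKM in 1 PBS library and listed at 0 in the other 5. With IL-33 it was at 4.93 to 15.8 FPKM in WT and 5.96 to 8.69 FPKM in *Sema6d*-/- ILC2s. It was called higher in both genotypes (limma adjusted p = 0.00202 and 0.007). *Ccl25* and *Cxcl5* were listed at 0 in all PBS libraries. They were called in WT, at 1.44 to 3.07 and 4.37 to 9.96 FPKM with IL-33 (limma adjusted p = 0.0371 and 0.0275), and the calls were kept in 11 and 13 of 21 alternatives (ranges 0.0077 to 0.195 and 0.00648 to 0.211). The interaction was not significant for either (limma adjusted p = 0.877 and 0.894). PBS libraries listed more genes at 0 than IL-33 libraries, and the part of this in the *Ccl24*, *Ccl25* and *Cxcl5* calls was not tested. *Ccl27a*, *Cxcl16* and *Ccl6* completed the 5 most abundant of the list with *Cxcl1* and *Ccl24*, at 0 to 69.3, 0 to 22.2 and 0.0905 to 16.7 FPKM.

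Of 8 receptor genes for these ligands, *Ccr8* fell in both genotypes, beside 1.61% of all genes called lower in WT and 1.11% in *Sema6d*-/- ILC2s, and the other 7 did not pass the test. *Ccr8*, the receptor for CCL1, was measured at 3480, 3997 and 4634 FPKM (WT PBS) and 1674, 2446 and 2501 FPKM (WT IL-33) (log2 fold change −0.88, SE 0.16, limma adjusted p = 0.0101). In *Sema6d*-/- ILC2s it was measured at 3982, 3256 and 4053 FPKM (PBS) and 1886, 1992 and 2161 FPKM (IL-33) (−0.90, SE 0.16, limma adjusted p = 0.0129). The gene for the ligand and the gene for its receptor were thus both among the most abundant of the PBS libraries and both lower with IL-33. The *Ccr8* call was lost in WT when the other groups were left out of the fit (0.0824; range over 21 alternatives 0.0101 to 0.0824), and in *Sema6d*-/- ILC2s in 4 of 21 alternatives (range 0.00536 to 0.0661), among them those without *Sema6d*-/- IL-33 replicate 1 or 2 (0.0661 and 0.0581). *Ccr4*, the receptor for CCL17 and CCL22, was at 0.426 to 30.5 FPKM, *Cxcr2* at 5.45 to 11.2 and *Xcr1* at 0.194 to 11.4 FPKM.

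Genes whose log2(FPKM + 1) followed each member most closely over the 12 libraries were ranked by Pearson's r among 7411 others with a mean of at least 5 FPKM. The points share libraries and treatment, so r is a description. *Ccl1* was nearest to *Klf3* (r = 0.98), *Gadd45b* (0.98) and *Bambi* (0.98), and *Cxcl2* to *Selk* (0.95), *Jund* (0.94) and *Ptpn13* (0.93). *Cxcl10* was nearest to *Dcaf12* (0.98), *Rilpl2* (0.96) and *Myo1g* (0.95). In WT PBS replicate 1 *Cxcl10* and these neighbours were each at their lowest of the 12 libraries (0.185, 0, 0.943 and 9.98 FPKM). How far these r values rest on that library was not tested. *Ccl5* was nearest to *Abhd17c* (0.86), *Atad2* (0.86) and *Tmem30a* (0.85). *Cxcl3* had no close neighbour, with *Fxyd5* (0.71), *Itm2b* (0.71) and *Cfl1* (0.68) the nearest. For the genes with libraries at 0, *Ccl3* was nearest to *Agps* (0.94), *Mir6538* (0.86) and *Mau2* (0.86), *Ccl4* to *Sept4* (0.91), *Phf8* (0.90) and *Smg9* (0.89), and *Xcl1* to *Tfb1m* (0.92), *Mrpl46* (0.91) and *Atg13* (0.87).

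Most of the genes lie on chromosomes 5, 8 and 11 of the mouse genome (RefSeq, GRCm38.p6). On chromosome 5 *Cxcl5* (chr5:90759298-90761625), *Cxcl3* (chr5:90786101-90788093), *Cxcl1* (chr5:90891245-90893121) and *Cxcl2* (chr5:90903899-90905938) lie in this order, and *Cxcl10* lies at chr5:92346638-92348889. Within this stretch *Cxcl1* and *Cxcl2* fell with IL-33, *Cxcl3* did not pass the test and *Cxcl5* was above 0 only with IL-33. On chromosome 11 *Ccl1* lies at chr11:82176666-82179812, *Ccl5* at chr11:83525778-83530518, *Ccl3* at chr11:83647843-83649378 and *Ccl4* at chr11:83648624-83664683. The RefSeq spans of *Ccl3* and *Ccl4* overlap on opposite strands, and their GENCODE exons do not. *Ccl22* (chr8:94745684-94751388) and *Ccl17* (chr8:94809380-94812038) lie on chromosome 8, and *Xcl1* lies at chr1:164931644-164935522. *Cxcl10* and *Xcl1* share 133 and 98 exonic bases with *Art3* and *Gm20743* on the other strand, so reads there cannot be told apart without strand.

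Promoter windows of 300 bases were matched in RefSeq for 8 of the 10 genes, all but *Ccl4* and *Ccl5*. An NF-kB-like motif was found, on either strand, in 4 of the 8, *Ccl1*, *Cxcl2*, *Cxcl3* and *Cxcl10*, and in 1.47% of all 32851 windows. The AP-1-like motif was in 1 of 8 (*Cxcl10*; 7.81% of all), the interferon response element-like motif in 1 of 8 (*Cxcl10*; 3.44%) and the GATA-like motif in 2 of 8 (*Ccl17* and *Cxcl10*; 11.2%). The 4 genes with the first motif include both that fell with IL-33 and 2 that did not pass the test. A match is a description of letters and not a binding site. Their 250 bases before the transcript start are given 5′ to 3′ on the strand of the gene, with the matches to the NF-kB-like motif in capitals, because these windows hold what *Ccl1* and *Cxcl2* share and what *Cxcl3* and *Cxcl10* share with them. In *Ccl1*, *Cxcl2* and *Cxcl3* the capitals are 2 overlapping matches, 1 on each strand. The windows are chr11:82179813-82180062 (minus strand), chr5:90903649-90903898 (plus), chr5:90785851-90786100 (plus) and chr5:92348890-92349139 (minus).
Ccl1: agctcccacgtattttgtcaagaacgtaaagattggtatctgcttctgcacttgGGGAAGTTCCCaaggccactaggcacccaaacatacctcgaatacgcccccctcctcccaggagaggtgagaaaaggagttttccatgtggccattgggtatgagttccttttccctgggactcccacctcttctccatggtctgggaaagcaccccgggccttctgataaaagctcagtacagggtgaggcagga
Cxcl2: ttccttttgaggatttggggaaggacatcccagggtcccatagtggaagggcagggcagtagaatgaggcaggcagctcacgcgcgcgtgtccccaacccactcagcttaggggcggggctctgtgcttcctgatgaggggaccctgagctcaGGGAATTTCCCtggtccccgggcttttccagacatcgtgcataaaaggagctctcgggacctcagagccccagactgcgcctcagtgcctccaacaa
Cxcl3: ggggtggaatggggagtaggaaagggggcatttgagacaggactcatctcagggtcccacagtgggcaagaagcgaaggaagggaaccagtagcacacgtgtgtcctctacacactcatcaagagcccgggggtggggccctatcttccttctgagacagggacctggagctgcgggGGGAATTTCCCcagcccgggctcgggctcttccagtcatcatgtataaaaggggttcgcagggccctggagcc
Cxcl10: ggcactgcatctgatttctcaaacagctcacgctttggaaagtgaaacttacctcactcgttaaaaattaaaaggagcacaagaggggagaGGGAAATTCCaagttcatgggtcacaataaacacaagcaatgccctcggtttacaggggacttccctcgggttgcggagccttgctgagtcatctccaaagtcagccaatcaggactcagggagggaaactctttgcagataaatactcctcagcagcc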

How the data were processed

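Lung ILC2 RNA was measured in 12 libraries, grouped by the genotype, treatment and replicate number of their labels. The authors deposited 1 table of FPKM values per library, with 24346 gene symbols. Per the labels, cDNA was made with a SMART-Seq HT kit and libraries with a Nextera kit, and the submitters' processing notes name TopHat2 2.1.1, Bowtie2, Cuffdiff 2.2.1 and the build mm10. The methods of the study name another library kit and other versions, and an annotation is not given in the sources used here. Total reads per library are unknown, and only relative depth could be read from the steps of low values.

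Genes averaging 0.5 FPKM or more over the 12 libraries, or on a gene list and above 0 in at least 1 library, were tested (11436, all 10 chemokine genes among them). limma 3.58.1 in R 4.3.3 was fitted to log2(FPKM + 1) with 4 group means and an intensity trend, two-sided, with Benjamini-Hochberg adjustment over all genes tested and calls at 0.05. Single genes were also tested by exact permutation in Python 3.11.15. Both were tested on simulated data. Named were the 10 genes, the called and the 5 most abundant of each of 2 lists (28 other chemokines, 8 receptors), the 3 nearest genes of each member with a mean of at least 5 FPKM in any group, and the most abundant gene of marker lists; values of 4 of the 8 receptor genes are given, and the others enter only as counts. *Sema6d*, *Tbp*, *Ncr1*, *Clec9a*, *Cd4*, *Cd68*, *Batf3*, *Ccr7*, *H2-Aa*, *H2-Ab1*, *Icos*, *Il2ra* and *Klrg1* were named after their values were seen. So were the dendritic cell markers *Flt3*, *Zbtb46*, *Itgax*, *Cd209a*, *Siglech* and *Fscn1*. The members and lists were chosen with earlier results of these data known. Alternatives were the pseudocount 0.1, no filter, a minimum mean of 2 FPKM, quantile normalization, median ratio scaling, array weights, a replicate block, only the groups compared, each library left out in turn and, chosen after seeing the data, both libraries with NK cell markers left out.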

Additional observations from a re-analysis of the deposited data

How the results depend on the processing

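*Ccl1* and *Cxcl2* were called lower with IL-33 averaged over genotypes in all 20 alternatives, as were *Cxcl1* and *Ccr8*, and *Ccl24* was called higher in all 20. No alternative adjusted for the larger number of genes listed at 0 in PBS libraries. Over the gene results and their alternatives, 1631 values did not turn direction and kept their side of the threshold, 55 lost and 4 gained a call, and 65 turned direction without being called. An alternative that gave exactly 0 (7, for *Ccl22*, *Ccl24* and *Ccl25*) has no direction and is among the 1631. Leaving out both libraries with NK cell markers was chosen after seeing the data. The cause of the changes below was not tested. In no leave-one-out fit did a group keep fewer than 2 libraries.

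Counts of genes called moved by setting. For IL-33 against PBS in *Sema6d*-/- ILC2s, 331 genes and 2 members were called, against 210 genes and 1 member with array weights, 1 member with only the groups compared and 214 genes without both NK libraries. For genotype under IL-33 1 gene was called, against 2 with the pseudocount 0.1, 57 with array weights, and 0 with quantile normalization, only the groups compared or without both NK libraries. For genotype under PBS 68 were called, against 33 with no filter, 36 with quantile normalization and 1 with array weights or only the groups compared. For the interaction 2 were called, against 5 with the pseudocount 0.1, 1 with array weights and 0 without both NK libraries. Leaving out each library in turn gave 211 to 690 genes for IL-33 in WT (494 called), 138 to 497 in *Sema6d*-/- ILC2s, 671 to 1251 averaged (1019 called), 0 to 3 for genotype under IL-33, 20 to 206 under PBS and 0 to 28 for the interaction. Members called ran from 2 to 3 in WT and averaged.

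The main fit did not pair libraries by replicate number. The 18 correlations of same-numbered deviations ran from −0.0467 to 0.0447. They show no shared pattern over all genes tested, and cannot show whether same-numbered libraries were prepared together. With a replicate block, 15 genes were called for genotype under PBS and 1 for the interaction.

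Values that turned direction, as log2 fold changes, were these. With the pseudocount 0.1, *Ccl3* was 0.17 in WT and 1.19 averaged, *Xcl1* 0.98 averaged, and *Ccl17* −0.74 for genotype under IL-33 and for the interaction. With quantile normalization, *Ccl3* was −0.12, *Ccl4* −0.084 and *Ccl25* −0.036 in *Sema6d*-/- ILC2s, *Ccl22* −0.13 averaged, and *Ccr8* 0.0078 and 0.042 for genotype under IL-33 and PBS. Without both NK libraries, *Cxcl3* was −0.90 in *Sema6d*-/- ILC2s and −0.15 averaged, *Ccl3* 0.59 averaged, *Ccl17* −0.071 and *Xcl1* −0.51 for genotype under IL-33, *Ccr8* 0.0029 for genotype under PBS, and *Ccl5* 0.14, *Ccl17* −0.071 and *Cxcl2* −0.10 for the interaction.

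Leaving out each library in turn gave these ranges. With IL-33 in WT, *Ccl3* ran from −1.79 to 1.42 and *Xcl1* from −0.49 to 2.32. In *Sema6d*-/- ILC2s, *Ccl3* ran from −0.66 to 2.34, *Ccl4* from −1.0001 to 3.00 and *Cxcl3* from −0.33 to 1.64. Averaged, *Ccl3* ran from −0.72 to 0.88 and *Xcl1* from −1.30 to 0.56. For genotype under IL-33, *Ccl17* ran from −0.74 to 0.83, *Cxcl3* from −1.72 to 0.24, *Xcl1* from −0.51 to 0.71 and *Cxcl1* from −0.32 to 0.081. Under PBS, *Ccl1* ran from −0.25 to 0.0044, *Ccl3* from −2.14 to 2.004 and *Ccr8* from −0.20 to 0.0062. For the interaction, *Ccl3* ran from −1.08 to 3.06, *Ccl5* from −0.68 to 0.31, *Ccl17* from −0.74 to 0.83, *Cxcl2* from −0.075 to 0.45, *Cxcl3* from −0.93 to 1.03 and *Ccr8* from −0.20 to 0.089.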

Other observations

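Markers of other cell types gave these values. Calls are for IL-33 against PBS averaged over genotypes, in which 5.81% of all genes were called higher and 3.1% lower. Of 12 macrophage and monocyte markers, all above 0 in some library, 1, *Cd68*, was called higher with IL-33 averaged over genotypes (limma), and *Lyz2*, which encodes lysozyme, was the most abundant. Of 8 T cell markers 7 were above 0 and 0 were called, with *Cd3g*, a chain of the T cell receptor complex, the most abundant and *Cd4* at 0 in all 12 libraries. Of 8 mast cell and basophil markers 5 were above 0 and 1, *Cpa3*, was called lower, of 8 granulocyte markers 3 were above 0 and 0 were called, and of 6 B cell markers 4 were above 0 and 1, *Cd79b*, was called higher. Of 8 epithelial, endothelial and stromal markers 8 were above 0 and 1, *Epcam*, was called lower. The sort was set to remove cells with lineage markers, and which of these genes ILC2s themselves transcribe was not tested.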
